A study of Homo sapiens with 18 samples.

Results

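PTGIS, which encodes prostacyclin synthase, and 5 further genes of prostanoid synthesis (PTGS1, PTGS2, PTGES, PTGES2 and PTGES3) were examined in cells transfected with a mimic of the microRNA hsa-miR-28-5p or of its relative hsa-miR-708-5p. The 6 genes were chosen by symbol, out of 16715 genes listed in MCF10A or hTERT RPE-1 cells. PTGIS led the choice because its level was far lower with the second mimic than with the first in hTERT RPE-1 cells, so its values in that cell line are given as a description and were not tested. MCF10A listed 5 of the genes (all but PTGIS), hTERT RPE-1 listed 4 (PTGIS, PTGS2, PTGES2 and PTGES3), and 3 were listed in both. All those listed passed the filter on low values in their cell line.

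Poly(A) RNAseq was conducted on 18 libraries, 9 from MCF10A, a near-normal human breast epithelial line, and 9 from hTERT RPE-1, a retinal pigment epithelial line immortalized with telomerase. In each line there were 3 biological replicates of each mimic and of siNT, the non-targeting siRNA control, each at 30 nM for 72 h. The mimics are called miR-28 and miR-708 from here on. Replicates of MCF10A carry the numbers 7, 8 and 9, and those of hTERT RPE-1 carry 1, 2 and 3. All cells were transfected with a small RNA, the siNT cells included, and each line is a single established culture, so the replicates measure the spread between cultures of that line.

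Prostanoids are short-lived lipid signals made from arachidonic acid. Phospholipases release arachidonic acid from membranes, the cyclooxygenases encoded by PTGS1 and PTGS2 convert it to prostaglandin H2, and a terminal synthase then sets which prostanoid is made. Prostacyclin synthase makes prostacyclin, which relaxes vessels and restrains platelets and is best known from endothelium and smooth muscle, while the prostaglandin E synthases encoded by PTGES, PTGES2 and PTGES3 make prostaglandin E2, the main prostanoid of many epithelia. Transcript levels say nothing of enzyme activity or of the lipids, which were not measured.

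The mature sequence of hsa-miR-708-5p, taken from RefSeq (GRCh38.p14, chr11:79402077-79402099, minus strand), is shown because its seed, bases 2 to 8 in capitals, defines the matches searched in the 6 genes. The authors describe the same seed for both mimics.
hsa-miR-708-5p: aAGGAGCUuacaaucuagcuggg

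The transcripts of the 6 genes (MANE Select, GENCODE 44, hg38) were searched on the sense strand for GCTCCT, the 6mer that pairs with the seed, and for the longer AGCTCCT and GCTCCTA, which contain it. PTGS2 was the only one of the 6 with a 7mer in its 3′ UTR, and PTGS1 and PTGES each held a 6mer there. The 3′ UTRs of PTGIS, PTGES2 and PTGES3 held no match, and the PTGIS 3′ UTR was the longest of them at 4046 bases. The matches in 3′ UTRs are printed 5′ to 3′ with the matching bases in capitals.
PTGS2, exon 10, chr1:186672910-186672939, minus strand: gactgctatttAGCTCCTcttaagaagatt
PTGS1, exon 11, chr9:122393768-122393797, plus strand: tccagagcttgtGCTCCTcttgattcctgg
PTGES, exon 3, chr9:129738695-129738724, minus strand: aggacagggctgGCTCCTctgcccccgctg

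Outside the 3′ UTRs, PTGS1 and PTGIS were the only ones of the 6 with a match, all in coding exons. PTGS1 had a 7mer in exon 6 and a 6mer in exon 2, and PTGIS had a 6mer in exon 1 and another in exon 7. These sites are printed because PTGIS and PTGS1 had the lowest levels relative to siNT among the 6 genes.
PTGS1, exon 6, chr9:122381384-122381413, plus strand: gccagatgcccAGCTCCTggcccgccgctt
PTGS1, exon 2, chr9:122371205-122371234, plus strand: cttgctgttcctGCTCCTgctcccgccgct
PTGIS, exon 1, chr20:49568085-49568114, minus strand: ggcttgggccgcGCTCCTcggcctcctggc
PTGIS, exon 7, chr20:49514352-49514381, minus strand: cgctgccttctgGCTCCTgctcttccttct

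Such matches are common. Of 18780 annotated 3′ UTRs, 33.01% held the 6mer and 17.2% held either 7mer, and 51.9% of transcripts held the 6mer upstream of the 3′ UTR, with 25.7% holding a 7mer there. Among 3′ UTRs of similar length, 656 of 2523 held a 7mer for a length like that of PTGS2, and 36.0% held a 7mer for a length like that of PTGIS. A match is a stretch of letters, not a shown site of binding.

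Values are estimated read counts scaled between the libraries of a line, and a fold change is on the scale log2(value + 1). Reads on genes numbered 19.4–31.7 M per MCF10A library and 23.8–40.3 M per hTERT RPE-1 library, and 3 reads correspond to values of 2.49–4.02 in the first line and 2.36–4.41 in the second. Ribosomal RNA made up 15.1% of replicate 1 of miR-28 in hTERT RPE-1 and 1.71–7.20% of the other libraries. The labelled tissue was checked against markers. MCF10A listed 9 of 9 breast epithelial markers, while hTERT RPE-1 listed 7 of 9 retinal pigment epithelial markers, with MITF at 1908 ± 139 and OTX2 at 951 ± 62.4 in siNT (SD, n = 3). Both lay lower with the mimics, without overlap with siNT, MITF at means of 1093 with miR-28 and 1291 with miR-708 and OTX2 at 646 and 662. The retinal markers did not all move this way. Of the 7 listed, 4 lay below all siNT libraries with miR-28 and 3 with miR-708. With each mimic 2 lay above all siNT libraries, BEST1 and RLBP1. The visual cycle gene RPE65 and the pigment gene TYR were not listed in hTERT RPE-1, and RLBP1 was at 2.42 in siNT, near the level of 3 reads. MCF10A listed 5 of the 9 retinal markers, among them RPE65 at 17.8 in siNT and BEST1 at 795, against 166 for BEST1 in hTERT RPE-1, where the tables were scaled separately.

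PTGIS (chr20:49503874-49568137, minus strand, 10 exons) had the largest ratio of highest to lowest value among the 4 genes listed in hTERT RPE-1. Its values in replicates 1, 2 and 3 were 941, 1207 and 716 with siNT. They were 298, 253 and 167 with miR-28. With miR-708 they were 36.9, 39.0 and 13.6. The 3 groups lay apart from each other, and replicate 3 was the lowest library in every group. In the comparison of the mimics, 38.7% of all genes had groups without overlap. The means were 955 ± 245.7, 239 ± 66.7 and 29.8 ± 14.1 (SD, n = 3), so that PTGIS stood in the order siNT, miR-28, miR-708 from high to low.

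The log2 fold change of PTGIS against siNT was -2.001 (SE 0.37) with miR-28, a 4.004-fold lower level. With miR-708 it was -5.06 (SE 0.37), a 33.3-fold lower level. Between the mimics it was -3.06 (SE 0.37), or 8.31-fold lower with miR-708. Taken by replicate number, miR-708 left 0.0392, 0.0323 and 0.0190 of the siNT level, and miR-28 left 0.316, 0.210 and 0.233. Among 14527 genes tested in hTERT RPE-1, PTGIS held place 9 from the lowest fold change with miR-708, place 157 with miR-28 and place 8 in the comparison of the mimics. These places come from the same values as the choice of the gene. All PTGIS values exceeded the level of 3 reads, also the lowest of 13.6.

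**Figure D1:**
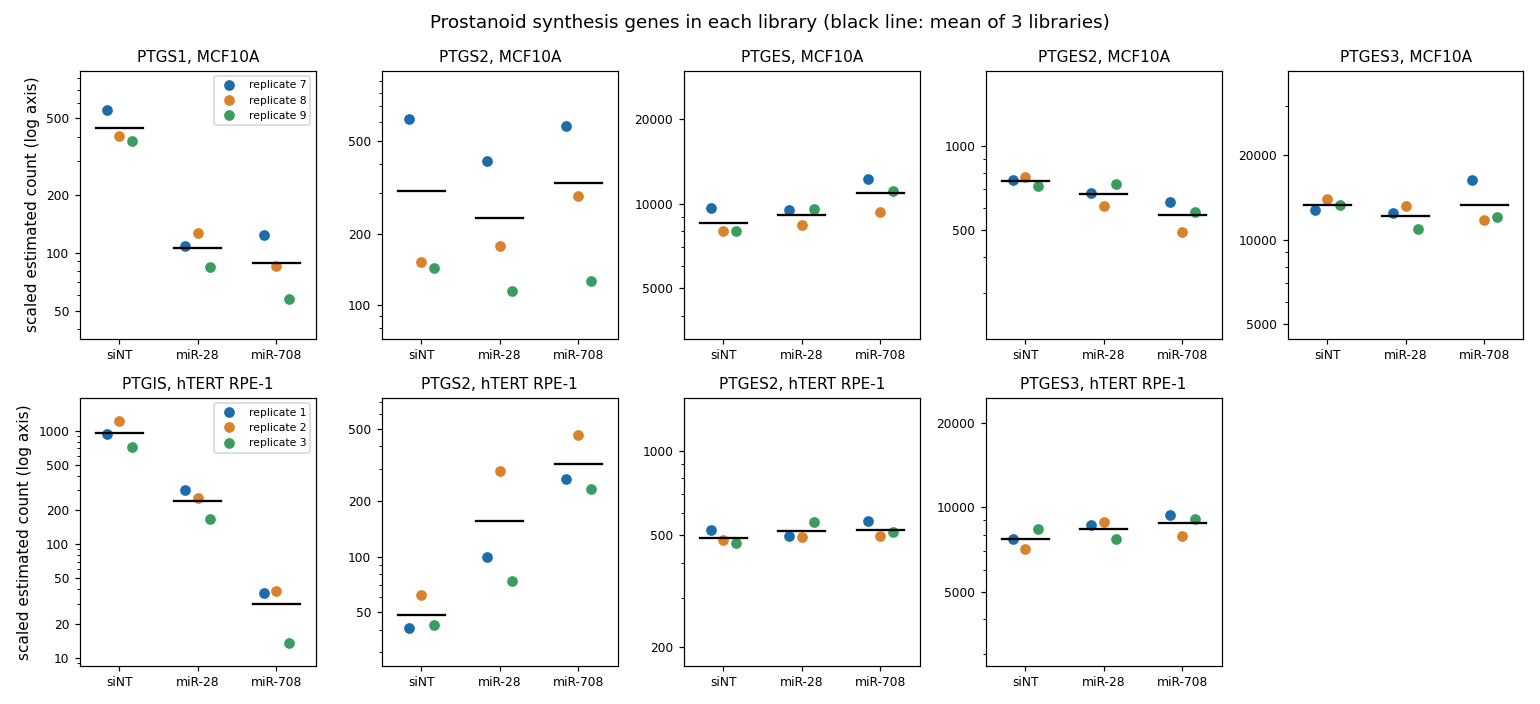
Scaled estimated count (log axis) of each prostanoid synthesis gene in each library, by group, with replicates coloured by number and the mean of 3 libraries as a black line, MCF10A above and hTERT RPE-1 below. PTGIS descends from a mean of 955 with siNT to 29.8 with miR-708 in hTERT RPE-1, and PTGS2 rises from 48.3 to 319.2 in the same libraries.

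Endothelium, smooth muscle and fibroblasts are cells in which PTGIS is known to be expressed. Of 4 endothelial markers, PECAM1 and CDH5 were not listed in hTERT RPE-1, and VWF and TEK summed to 12.8–27.6 across the 9 libraries. All 7 mesenchymal markers were listed, and their summed level was 1251000–1983000 with siNT, 1440000–1848000 with miR-28 and 930100–1073000 with miR-708. Most of that sum was FN1, which encodes fibronectin, with means of 1341400, 1484000 and 882050 in the same order. Below all siNT libraries lay 2 of the 7 markers with miR-28 and 5 of the 7 with miR-708, and 0 lay above with either mimic. Of all genes, 54.4% and 69.2% had no overlap with siNT, counting both directions. The 2 markers low with both mimics were PDGFRB, a receptor of pericytes and fibroblasts, and COL1A1, a fibrillar collagen chain. PDGFRB had means of 12547, 6570.5 and 2951 with siNT, miR-28 and miR-708. COL1A1 had means of 41392, 9572 and 2938.5. Both genes stood in the same order as PTGIS, but that siNT stood highest follows from their choice as low with both mimics. The means of VIM, CDH2 and COL5A1 stood in that order too, while those of FN1 and COL1A2 did not. COL1A2 had low means of 8.98, 13.4 and 13.3 with siNT, miR-28 and miR-708. COL5A1 was also at low values, with a mean of 20.8 with siNT. The part of these markers in the PTGIS level was not tested. In bulk RNA, fewer cells that express a gene and less RNA per cell cannot be told apart.

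The genes most like PTGIS across the 9 hTERT RPE-1 libraries were PODNL1 (Pearson r = 0.993), COL8A2 (0.993), ITGB5 (0.990), COL4A3 (0.989) and ERRFI1 (0.989), out of 11439 genes with a mean of at least 100. These libraries fall into 3 groups, so r follows the group means and is given as a measure of likeness with no p. COL4A3, a collagen chain of basement membranes, had means of 9008, 2956 and 441 with siNT, miR-28 and miR-708. COL8A2, a collagen chain of corneal basement membrane, had means of 939, 369 and 78.4 in the same order. PODNL1 had means of 703, 234.5 and 49.7. That these means stand in the order of those of PTGIS follows from the choice of the genes by r.

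PTGS1 (chr9:122371024-122395703, plus strand, 11 exons), the cyclooxygenase usually present without stimulation, was listed in MCF10A and not in hTERT RPE-1. PTGS1 values in replicates 7, 8 and 9 were 548, 402 and 379 with siNT. The miR-28 libraries held 109, 126 and 83.8, and the miR-708 libraries held 123, 85.2 and 57.3. All 6 libraries with a mimic lay below all 3 siNT libraries, while the mimics overlapped each other.

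Markers of the line moved in the same libraries. The sum of the 9 breast epithelial markers was 227800–241400 with siNT, 155600–166600 with miR-28 and 129500–161000 with miR-708. Below all siNT libraries lay 6 of the 9 with miR-28 and 5 of the 9 with miR-708, and 0 lay above with either mimic. Of all genes, 41.8% and 46.6% had no overlap with siNT, counting both directions. Within the list KRT14, a keratin of basal cells, had means of 35973, 10943 and 7456 in the 3 groups. PTGS1 is also expressed in platelets and endothelium, and of 4 endothelial markers MCF10A listed PECAM1 and TEK. PECAM1 had means of 179, 85.5 and 79.1, and the sum of the 2 was 183–190 with siNT, 74.9–104.5 with miR-28 and 85.9–95.0 with miR-708. TEK did not fall, at low means of 8.53, 8.80 and 10.6 that overlapped siNT, so the fall of the sum is that of PECAM1. Neither sum with a mimic overlapped siNT, and the part of these markers in the PTGS1 level was not tested.

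PTGS1 fell by 2.05 (SE 0.28) on the log2 scale with miR-28, to a level 4.14-fold lower than siNT (adjusted p = 0.00081, limma). Adjusted p-values here and below are by Benjamini-Hochberg over all genes tested. With miR-708 it fell by 2.36 (SE 0.28), to a 5.13-fold lower level (adjusted p = 0.00015, limma). Between the mimics the difference of -0.31 was not called (adjusted p = 0.631, limma), with a 95% interval of -0.91 to 0.30. PTGS1 was the only 1 of 5 listed genes called with miR-28 in MCF10A, where 22.7% of all genes were called, 10.7% higher and 12.0% lower. Among 14726 genes tested in MCF10A it held place 35 from the lowest fold change with miR-28 and place 34 with miR-708. Groups without overlap were found for 41.8% of genes with miR-28 and 46.6% with miR-708. A lncRNA annotated on the same strand overlaps PTGS1, and reads shared with it could have been split.

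PTGS2 (chr1:186671791-186680423, minus strand, 10 exons), the inducible cyclooxygenase, was listed in both lines. In hTERT RPE-1 its values in replicates 1, 2 and 3 were 40.6, 61.8 and 42.6 with siNT. With miR-28 they were 99.3, 294 and 73.4. With miR-708 they were 266, 458 and 233. All 6 libraries with a mimic lay above all siNT libraries, the mimics overlapped, and replicate 2 was the highest library of every group.

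PTGS2 rose by 1.42 (SE 0.45) on the log2 scale with miR-28 in hTERT RPE-1, or 2.68-fold (adjusted p = 0.0236, limma). With miR-708 it rose by 2.66 (SE 0.45), or 6.32-fold (adjusted p = 0.00045, limma). Between the mimics it stood 1.24 (SE 0.45) higher with miR-708, given as a description. The replicate numbers pair the libraries of the mimics in hTERT RPE-1, and PTGS2 was higher with miR-708 in each of the 3 pairs, with an SE of 0.25 when the number was a block. By replicate number, the ratio to siNT was 2.45, 4.76 and 1.72 with miR-28 and 6.56, 7.42 and 5.48 with miR-708. The call with miR-28 was lost without siNT replicate 1 (log2 fold change 1.31, adjusted p = 0.0738, limma) and without siNT replicate 3 (1.35, adjusted p = 0.0672, limma). PTGS2 was the only 1 of the 3 genes other than PTGIS that was called in hTERT RPE-1, with either mimic, where 46.8% of all genes were called with miR-28 (23.3% higher and 23.5% lower) and 62.1% with miR-708 (30.9% higher and 31.2% lower). The groups did not overlap for 54.4% and 69.2% of genes.

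PTGS2 is also a gene of activated macrophages, so leukocyte markers were read beside it. Of 4 such markers, ITGAM and CD3E were not listed in hTERT RPE-1, and PTPRC, the pan-leukocyte marker CD45, was at means of 7.01, 6.98 and 6.27 with siNT, miR-28 and miR-708. CD68, a lysosomal protein found in macrophages and at lower levels elsewhere, had means of 377, 2058 and 6273. The summed level of the list was 326–458, 527–3725 and 4795–7237 in the 3 groups, nearly all of it CD68, and its part in the PTGS2 level was not tested. In MCF10A, CD68 had means of 205, 277 and 659, with all miR-708 libraries above siNT, while PTGS2 was not called there.

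In MCF10A the PTGS2 values in replicates 7, 8 and 9 were 620, 153 and 144 with siNT. The miR-28 libraries held 409, 178 and 115, and those of miR-708 held 576, 290.0 and 127. The 3 groups overlapped, and replicate 7 was the highest library in each. The log2 fold change was -0.23 (SE 0.65, 95% interval -1.65 to 1.18) with miR-28 and 0.21 (SE 0.65, 95% interval -1.20 to 1.62) with miR-708, and neither was called (adjusted p = 0.822 and 0.834, limma). By replicate number, the ratio to siNT was 0.659, 1.16 and 0.799 with miR-28 and 0.928, 1.89 and 0.880 with miR-708. The replicate numbers pair the MCF10A libraries of each mimic with siNT, and with the number as a block the SE was 0.21 and neither change was called (adjusted p = 0.414 and 0.453, limma).

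The genes most like PTGS2 were different in the lines. In hTERT RPE-1 they were CD58 (r = 0.990), PLA2G4C (0.987), ZNF350 (0.983), ABI1 (0.982) and EMC7 (0.980), and in MCF10A they were PADI2 (0.975), KRT23 (0.947), ELF3 (0.947), TTC9 (0.946) and FUT3 (0.942) out of 11258 genes, each over 9 libraries. PLA2G4C encodes a cytosolic phospholipase A2 and is taken up with the genes of arachidonate supply. ELF3, an epithelial transcription factor, had means of 1818, 1778 and 2271 with siNT, miR-28 and miR-708 in MCF10A. PTGS2 itself differed more between replicates than between groups in MCF10A.

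The response of PTGS2 was compared between the lines. With miR-708 it was 2.45 (SE 0.79) higher in hTERT RPE-1 than in MCF10A on the log2 scale (adjusted p = 0.0175, t test on the limma fits). Of 13339 genes, 39.8% differed and 20.2% were higher in hTERT RPE-1. The PTGS2 call was lost without MCF10A siNT replicate 7 (1.77, adjusted p = 0.0694) and without MCF10A miR-708 replicate 9 (1.89, adjusted p = 0.0695, both by t test on the limma fits). With miR-28 the difference was 1.66 (SE 0.79) and was not called (adjusted p = 0.132, t test on the limma fits), while 23.4% of genes differed. With the replicate number as a block in both lines it was called (SE 0.33, adjusted p = 0.00100, t test on the limma fits). Across genes the numbers pair the hTERT RPE-1 libraries with siNT only weakly, while PTGS2 was highest in replicate 2 of each group there.

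PTGES (chr9:129738349-129753042, minus strand, 3 exons), the inducible membrane-bound prostaglandin E synthase, was listed in MCF10A and not in hTERT RPE-1. PTGES values in replicates 7, 8 and 9 were 9633, 8031 and 8029 with siNT. With miR-28 they were 9529, 8380 and 9589, and with miR-708 they were 12306, 9361 and 11139. The groups overlapped, since siNT replicate 7 exceeded miR-708 replicate 8. The log2 fold change was 0.10 (SE 0.12; adjusted p = 0.590, limma) with miR-28 and 0.35 (SE 0.12) with miR-708. The second change stood at the threshold of 0.05 (adjusted p = 0.049995, limma) and at 0.0138 with the replicate block. It did not pass without siNT replicate 8 or 9, without miR-28 replicate 8 or 9, or without miR-708 replicate 7 or 9, with log2 fold changes of 0.26 to 0.35. It also missed the threshold with a pseudocount of 0.5, no filter, no trend or only the 2 groups fitted (adjusted p = 0.0501 to 0.0850, limma).

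PTGES2 (chr9:128120693-128127729, minus strand, 7 exons), a membrane-associated prostaglandin E synthase, was listed in both lines. In MCF10A its values in replicates 7, 8 and 9 were 758, 774 and 718 with siNT. With miR-28 they were 680, 610 and 729, and with miR-708 they were 632, 492 and 581. The miR-708 libraries all lay below siNT, and those of miR-28 overlapped siNT through replicate 9. PTGES2 fell by 0.41 (SE 0.12) on the log2 scale with miR-708 (adjusted p = 0.0252, limma; 0.0158 with the replicate block), while the change of -0.16 (SE 0.12) with miR-28 was not called (adjusted p = 0.371, limma).

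The PTGES2 call was lost without any 1 of siNT replicates 7, 8 and 9 or miR-708 replicates 8 and 9 (log2 fold change -0.44 to -0.30 and adjusted p = 0.0503 to 0.104, limma). It was also lost when libraries were scaled to equal totals (-0.26, adjusted p = 0.103, limma), a scaling that moves the median of all genes by 0.14. In hTERT RPE-1, PTGES2 ranged from 471 to 563 over the 9 libraries, and its log2 fold changes of 0.07 and 0.10 (SE 0.10) were not called (adjusted p = 0.571 and 0.429, limma). With equal totals the second was 0.41 and called (adjusted p = 0.0074, limma), where the median of all genes moved by 0.32. The response to miR-708 was 0.50 (SE 0.16) higher in hTERT RPE-1 than in MCF10A (adjusted p = 0.0153, t test on the limma fits). It was 0.40 without MCF10A miR-708 replicate 8, where the call was lost (adjusted p = 0.0574, t test on the limma fits).

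PTGES3 (chr12:56663349-56688284, minus strand, 8 exons) encodes the HSP90 co-chaperone p23, also described as a cytosolic prostaglandin E synthase. PTGES3 ranged from 10909 to 16248 across MCF10A and from 7098 to 9420 across hTERT RPE-1, with the 3 groups overlapping in both lines. With miR-28 and miR-708, the log2 fold changes in MCF10A were -0.13 and -0.01 (SE 0.14) and those in hTERT RPE-1 were 0.13 and 0.19 (SE 0.10), and no change was called (adjusted p = 0.126 to 0.947, limma). The 95% intervals reached from -0.43 to 0.28 in MCF10A, while those of hTERT RPE-1 reached from -0.10 to 0.41. In hTERT RPE-1 the value with miR-708 was called when libraries were scaled to equal totals (0.51, adjusted p = 0.0017, limma), where the median of all genes moved by 0.32, and with quantile normalization (0.44, adjusted p = 0.0020, limma). The direction of the MCF10A values turned with the scaling of the libraries. In the reference annotation 5 pseudogenes are named for PTGES3, so the split of its reads is uncertain.

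With miR-708 in MCF10A, 3 of the 5 genes were called, with PTGS1 and PTGES2 lower and PTGES higher, against 32.8% of all genes (15.5% higher and 17.3% lower). Of these, PTGS1 was called in every alternative and with every library left out, and PTGES2 and PTGES were not. None of the 5 was called between the mimics in MCF10A, where 1.55% of all genes were called by limma with Benjamini-Hochberg adjustment. Of the 5, 0 had an unadjusted p below 0.05 there.

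**Figure D2:**
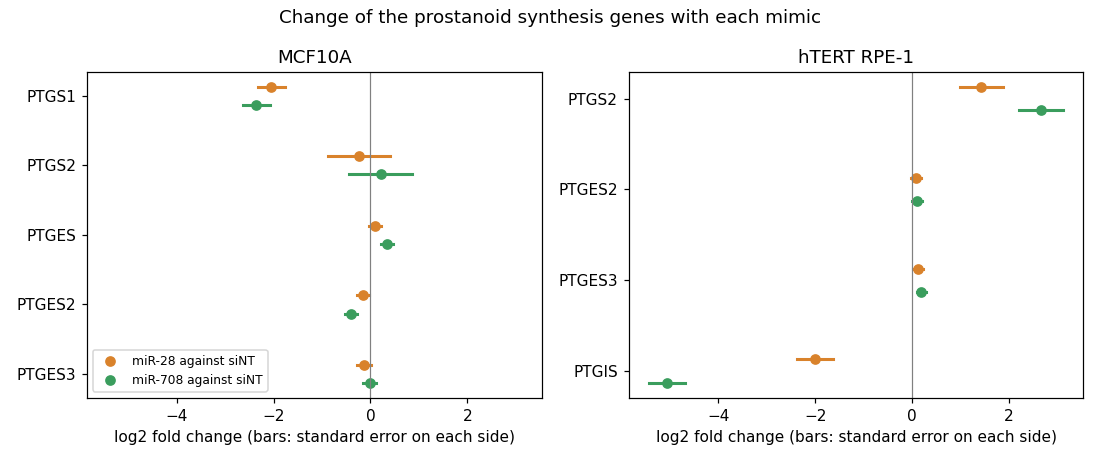
Log2 fold change of each prostanoid synthesis gene with each mimic against siNT (points) with its standard error on each side (bars, limma), MCF10A left and hTERT RPE-1 right. PTGS1 lies at -2.05 and -2.36 in MCF10A, and in hTERT RPE-1 PTGS2 lies at 1.42 and 2.66 and PTGIS at -2.001 and -5.06, while PTGES2 and PTGES3 lie within 0.5 of 0 in both lines.

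Levels of different genes were compared per kb of transcript. With siNT in hTERT RPE-1, the level per kb was 171 ± 44.1 for PTGIS, 10.7 ± 2.60 for PTGS2, 307.4 ± 17.1 for PTGES2 and 4063 ± 330 for PTGES3 (SD, n = 3). PTGIS thus stood above PTGS2, without overlap of the SDs, and below both prostaglandin E synthase genes. With miR-708, PTGIS was at 5.36 ± 2.53 per kb and PTGS2 at 70.8 ± 26.99, the opposite order. With siNT in MCF10A, the level per kb was 88.2 ± 18.3 for PTGS1, 67.8 ± 60.4 for PTGS2, 469 ± 18.1 for PTGES2, 4891 ± 529 for PTGES and 7018 ± 306 for PTGES3. The SDs of PTGS1 and PTGS2 overlapped in MCF10A, and PTGES was more than an order of magnitude above either cyclooxygenase gene.

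The genes around this route were read from 5 lists of 48 genes. In MCF10A 31 were tested, of which 11 were called with miR-28 (3 higher and 8 lower) and 13 with miR-708 (4 higher and 9 lower), next to 22.7% and 32.8% of all genes. Their median log2 fold change was -0.16 and -0.13, while that of all genes lay within 0.01 of 0 in each comparison with siNT. In hTERT RPE-1 30 were tested, of which 12 were called with miR-28 (8 higher and 4 lower) and 14 with miR-708 (10 higher and 4 lower), next to 46.8% and 62.1% of all genes. Their median was 0.23 and 0.20.

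**Figure D3:**
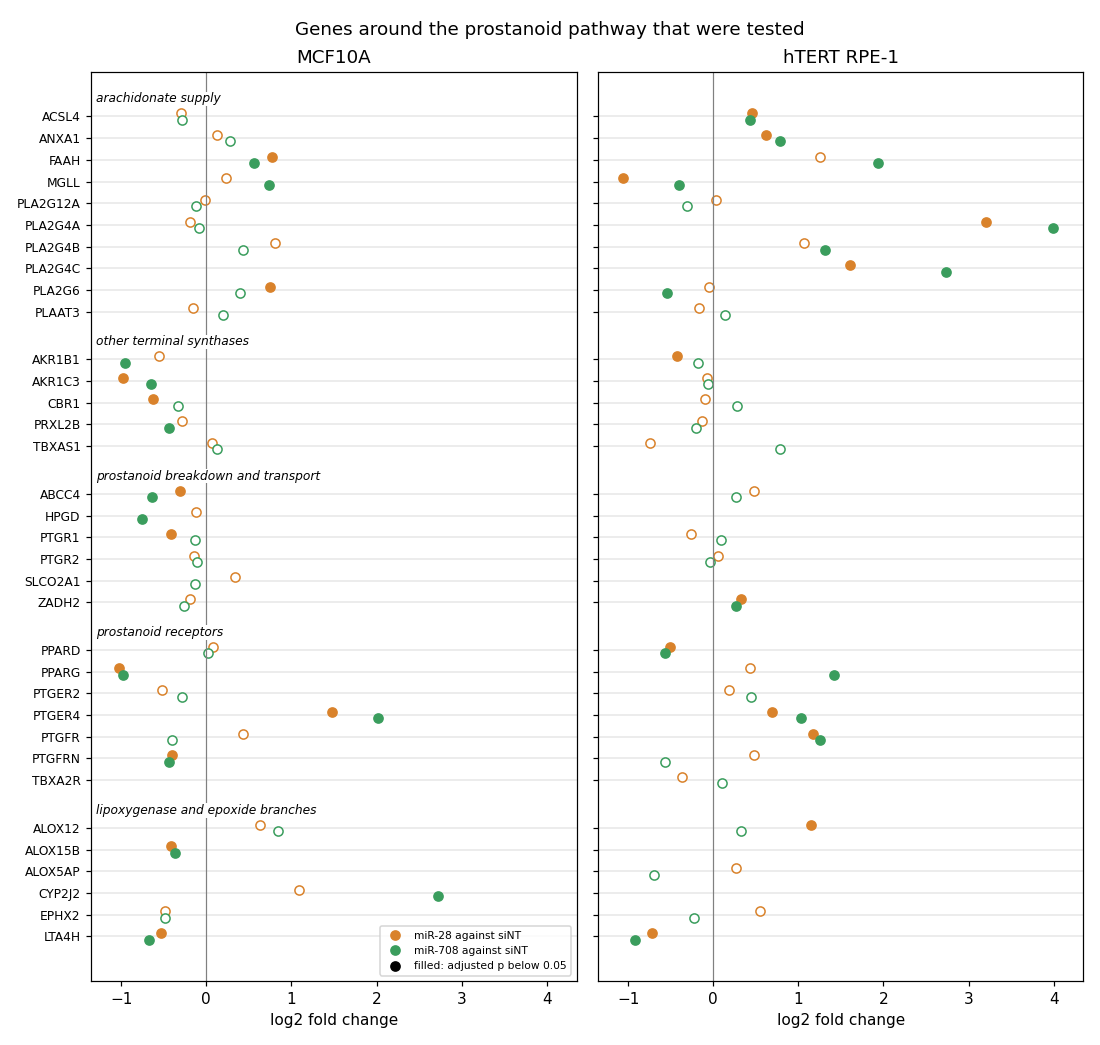
Log2 fold change of each tested gene of the 5 lists with miR-28 (orange) and miR-708 (green) against siNT, MCF10A left and hTERT RPE-1 right. Filled points passed an adjusted p of 0.05 (limma). PLA2G4A lies at 3.21 and 3.99 in hTERT RPE-1 and near 0 in MCF10A, and PTGER4 lies above 0 in both lines.

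Genes of arachidonate supply release arachidonic acid or govern its release. In hTERT RPE-1, 5 of 10 tested were called with miR-28 (4 higher and 1 lower) and 8 of 10 with miR-708 (6 higher and 2 lower), next to 46.8% and 62.1% of all genes. Among those higher with both mimics were ACSL4 (0.45 and 0.43) and ANXA1 (0.62 and 0.78), so the counts are not of releasing enzymes alone. In MCF10A, 2 of 9 were called with each mimic, all of them higher, next to 22.7% and 32.8% of all genes, of which 10.7% and 15.5% were higher. With the replicate number as a block, ACSL4 was called lower there with each mimic (-0.30 and -0.29, adjusted p = 0.0426 and 0.0402, limma). PLA2G4A encodes the cytosolic phospholipase A2 that acts ahead of the cyclooxygenases. Its hTERT RPE-1 values in replicates 1, 2 and 3 were 83.7, 40.5 and 74.8 with siNT, 521, 1032 and 390.2 with miR-28, and 901, 1238 and 957 with miR-708. No library with a mimic overlapped siNT. PLA2G4A rose by 3.21 and 3.99 (SE 0.35) on the log2 scale (adjusted p = 4.9e-05 and 5.0e-06, limma). In MCF10A it ranged from 995 to 1401, with log2 fold changes of -0.19 and -0.09 (SE 0.11) that were not called (adjusted p = 0.243 and 0.594, limma).

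PLA2G4C, listed and tested in hTERT RPE-1, held 33.7, 38.5 and 22.0 with siNT, 79.6, 208 and 52.4 with miR-28, and 162, 307.2 and 185 with miR-708. Replicate 2 was the highest library in each group, as for PTGS2. PLA2G4C rose by 1.61 and 2.74 (SE 0.45) on the log2 scale (adjusted p = 0.0131 and 0.00036, limma), and the first call was lost without siNT replicate 3 (1.38, adjusted p = 0.0510, limma). PLA2G4B was called with miR-708 in hTERT RPE-1 (1.31, SE 0.44, adjusted p = 0.0239, limma), but not without siNT replicate 3 (0.74) or miR-708 replicate 1 (1.24) or 2 (1.17). A read-through transcript with the neighbouring JMJD7 is listed separately, so the split of the PLA2G4B reads is uncertain.

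MGLL and FAAH encode hydrolases that free arachidonic acid from endocannabinoids. MGLL in hTERT RPE-1 held 3300, 2791 and 2153 with siNT, 1091, 1539 and 1309 with miR-28 and 2054, 1870 and 2207 with miR-708. It fell by 1.06 (SE 0.16) on the log2 scale with miR-28 (adjusted p = 0.00046, limma), without overlap with siNT. The change of -0.41 with miR-708 overlapped siNT and was called (adjusted p = 0.0469, limma), but moved to -0.09 when libraries were scaled to equal totals. That call was lost without siNT replicate 1 (-0.27) or 2 (-0.39), without miR-28 replicate 3 (-0.41), and without miR-708 replicate 1 (-0.41), 2 (-0.35) or 3 (-0.47). It was also lost with no trend (adjusted p = 0.0806, limma), with quantile normalization (0.0667) and with the replicate block (0.0603). In MCF10A, MGLL was higher by 0.74 (SE 0.23) with miR-708 (adjusted p = 0.0296, limma), a call lost without siNT replicate 8 (0.52) or 9 (0.68) or miR-708 replicate 7 (0.61) or 9 (0.71), and with no trend (adjusted p = 0.0608, limma). FAAH rose by 0.77 and 0.56 (SE 0.14) in MCF10A (adjusted p = 0.0042 and 0.0122, limma). In hTERT RPE-1, FAAH was at 2.59, 1.01 and 5.87 with siNT, near the level of 3 reads, so its log2 fold change of 1.94 with miR-708 (adjusted p = 0.0084, limma) depends on the added 1.

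**Figure D4:**
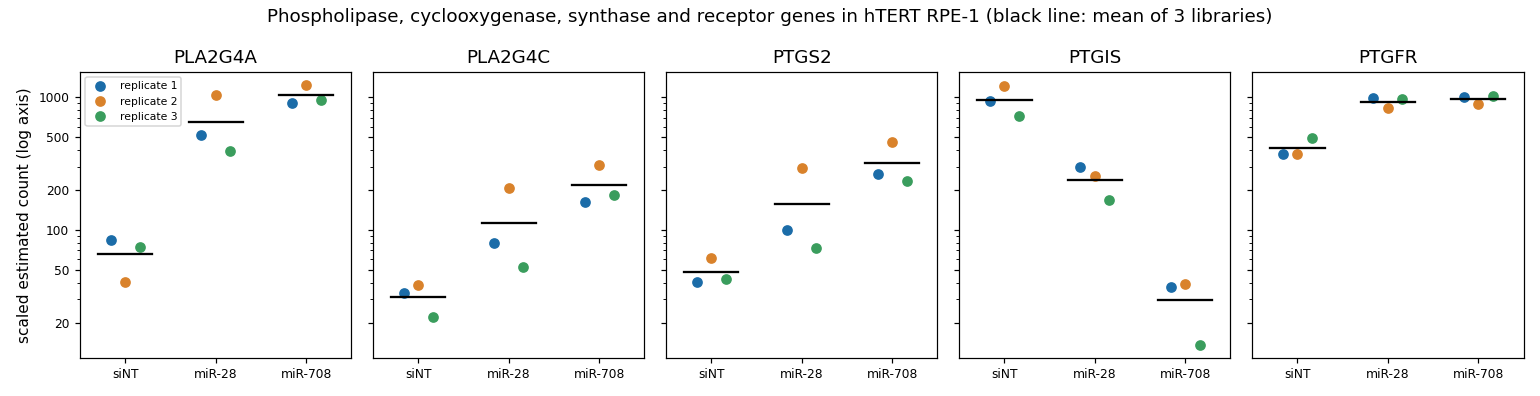
Scaled estimated count (shared log axis) in hTERT RPE-1 of 2 phospholipase genes, PTGS2, PTGIS and the receptor gene PTGFR, by group, with replicates coloured by number and the mean of 3 libraries as a black line. PLA2G4A, PLA2G4C and PTGS2 ascend from siNT to miR-708, PTGIS descends, and PTGFR stands at similar levels with both mimics.

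The other terminal synthases make thromboxane, prostaglandin D2 or prostaglandin F2α. The counts that follow stand next to shares over all genes of 22.7% with miR-28 and 32.8% with miR-708 in MCF10A (12.0% and 17.3% lower), and of 46.8% and 62.1% in hTERT RPE-1 (23.5% and 31.2% lower). In MCF10A 2 of 5 tested were called with miR-28 and 3 of 5 with miR-708, all lower, and in hTERT RPE-1 1 of 5 was called lower with miR-28 and 0 with miR-708 by limma, where 0 had an unadjusted p below 0.05. Among genes of prostanoid breakdown and transport, 2 of 6 were called lower in MCF10A with each mimic, and 1 of 4 was called higher in hTERT RPE-1 with each. In the lipoxygenase and epoxide branches, 2 of 5 were called in MCF10A with miR-28 (both lower) and 3 of 5 with miR-708 (1 higher and 2 lower), and in hTERT RPE-1 2 of 4 (1 higher and 1 lower) and 1 of 4 (lower).

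CYP2J2, an epoxygenase of arachidonic acid, held 4.79, 10.7 and 10.96 with siNT in MCF10A, 10.7, 22.4 and 27.6 with miR-28, and 52.5, 75.6 and 56.3 with miR-708. It rose by 2.73 (SE 0.45) on the log2 scale with miR-708 (adjusted p = 0.0010, limma), without overlap with siNT, and the change of 1.09 with miR-28 was not called (adjusted p = 0.0990, limma). Without miR-28 replicate 7 the latter was 1.47 and called (adjusted p = 0.0346, limma). ALOX12, the platelet-type 12-lipoxygenase, was called with miR-28 in hTERT RPE-1 at low values of 17.5, 20.6 and 25.6 against 8.63, 6.08 and 13.2 with siNT (log2 fold change 1.15, SE 0.37, adjusted p = 0.0256, limma). That call was lost without siNT replicate 1 (1.13) or 2 (0.91) and without miR-28 replicate 2 (1.16) or 3 (1.01), and with quantile normalization (0.95, adjusted p = 0.0584, limma).

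Of the receptors for the products, PTGIR (prostacyclin), PTGER1 and PTGER3 were not listed in either line. PTGER4, a prostaglandin E2 receptor, held 34.7, 23.6 and 27.4 with siNT in MCF10A, 56.3, 92.0 and 98.6 with miR-28, and 88.3, 146 and 123 with miR-708. It rose there by 1.47 and 2.01 (SE 0.30) on the log2 scale (adjusted p = 0.0060 and 0.00060, limma), without overlap with siNT. In hTERT RPE-1, PTGER4 ranged over 138–245 with siNT, 221–347 with miR-28 and 341.5–425 with miR-708, and rose by 0.68 and 1.03 (SE 0.23; adjusted p = 0.0288 and 0.0024, limma). The first of these calls was lost without siNT replicate 1 (0.67) or 2 (0.49) and without miR-28 replicate 2 (0.56) or 3 (0.61), and with only the 2 groups fitted (adjusted p = 0.0553, limma). PTGER2, the other listed prostaglandin E2 receptor, was not called with either mimic in either line (log2 fold changes of -0.53 to 0.45, adjusted p = 0.151 to 0.680, limma). In hTERT RPE-1 with miR-708 it was called without miR-708 replicate 2 (0.71, adjusted p = 0.0255, limma) and when libraries were scaled to equal totals (0.76, adjusted p = 0.0197, limma), where that scaling moved the median of all genes by 0.32.

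PTGFR, the prostaglandin F2α receptor, held 374, 372 and 489 with siNT in hTERT RPE-1, 983, 830.0 and 967 with miR-28, and 1011, 882 and 1030 with miR-708. It rose by 1.18 and 1.25 (SE 0.13) on the log2 scale (adjusted p = 5.2e-05 and 1.6e-05, limma). In MCF10A, PTGFR differed more between replicates than between groups, at 393, 1001 and 956 with siNT, 493, 1432 and 1296 with miR-28 and 318, 732 and 704 with miR-708 in replicates 7, 8 and 9. Its MCF10A log2 fold changes of 0.43 and -0.40 (SE 0.46) were not called (adjusted p = 0.530 and 0.542, limma), and both were called with the replicate number as a block (adjusted p = 0.0104 and 0.0111, limma), where the numbers pair these libraries.

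PPARG, a nuclear receptor with prostaglandin D2 metabolites among its described ligands, went opposite ways in the lines. In MCF10A its values were 371, 424 and 384 with siNT, 182, 226 and 173 with miR-28 and 209.9, 179 and 210.97 with miR-708, without overlap with siNT. It fell there by 1.02 and 0.97 (SE 0.16) on the log2 scale (adjusted p = 0.0015 and 0.00090, limma). In hTERT RPE-1 its values were 296, 184 and 348 with siNT and 727, 644 and 780 with miR-708, where it rose by 1.42 (SE 0.20; adjusted p = 0.00015, limma). The change of 0.44 with miR-28 was not called (adjusted p = 0.102, limma), except without siNT replicate 3 (0.63, adjusted p = 0.0276, limma). The difference between the lines was 1.46 with miR-28 and 2.39 with miR-708 (SE 0.26, adjusted p = 0.00053 and 8.3e-07, t test on the limma fits).

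Of the 31 pathway genes tested in MCF10A, 0 were called between the mimics by limma and 6 had an unadjusted p below 0.05. In hTERT RPE-1, the comparison that led to the choice of PTGIS, 3 of 30 passed, all higher with miR-708, next to 21.2% of all genes, and this count is given as a description.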

How the data were processed

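Poly(A) RNA of 9 MCF10A and 9 hTERT RPE-1 libraries was sequenced. According to the submitters' processing notes and the methods, the authors aligned reads to hg38 with HISAT2 2.1.0, assigned them to RefSeq transcripts in Partek Flow by expectation-maximization and tested differences with DESeq2. The deposited signal is the estimated count of a gene after division by a size factor of its library: the median over genes of a library's value against the gene's geometric mean is the same in every library of a table. The authors' own columns of ratios and p-values were not used. Of the low values, 83.9–88.0% were whole multiples (within 0.05) of a library's step, so whole reads were not recovered and depth was read from the step. The floor of 3 reads covers counting error only.

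In place of the count test planned, values were tested as log2(value + 1) with limma 3.58.1 in R 4.3.3 over the 9 libraries of a line, with a trend, for genes at 10 or more in at least 3 libraries. P-values were adjusted by Benjamini-Hochberg over all genes tested in a comparison, at a threshold of 0.05. The tables were scaled separately, so only the limma fold changes were compared between the lines. Their difference was tested by a t test with Welch–Satterthwaite degrees of freedom. The fits were tested on simulated data. Exact permutation tests of 3 against 3 libraries cannot go below 0.1 and are not used.

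The 6 genes and the pathway and marker lists were chosen with earlier results of these data known. Pathway genes are named if called against siNT with a log2 fold change of at least 1 in size, or as receptors of prostacyclin or prostaglandin E2. ACSL4 and ANXA1, below that size, are named with the counts they belong to. The genes most like PTGIS and PTGS2 are the 5 with the highest Pearson correlation of log2 values.

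Libraries with the same number were correlated on their deviations from group means across genes. In MCF10A r was 0.263, 0.176 and 0.111 between miR-28 and siNT and 0.302, 0.115 and 0.155 between miR-708 and siNT. The highest different-number values were 0.11 for miR-28, its replicate 9 with siNT replicate 8, and 0.0738 for miR-708. The numbers thus pair these libraries, most clearly replicate 7, with replicate 9 of miR-28 barely set apart. In hTERT RPE-1 the numbers pair the mimics with each other (0.278, 0.198 and 0.134). With siNT the same-number values were lower, at 0.0214–0.151. Each still exceeded every different-number value, the highest being 0.0129 for miR-28 and 0.0396 for miR-708, so the pairing with siNT was weak. Alternatives were other pseudocounts, no filter, scaling to equal totals, quantile normalization, no trend, only the 2 groups compared, a replicate block and leaving out each library. Tables and figures were made in Python 3.11.15 (pandas 2.3.3, matplotlib 3.10.9).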

Additional observations from a re-analysis of the deposited data

Results flagged for a closer look

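The responses below differed between hTERT RPE-1 and MCF10A by a test of the difference itself. It was a t test on the limma fits with Benjamini-Hochberg adjustment over 13339 genes. Each value is the log2 response in hTERT RPE-1 minus that in MCF10A. Of all genes, 39.8% differed with miR-708 and 23.4% with miR-28. With miR-708, 2 of the 3 genes tested in both lines were called, PTGS2 at 2.45 and PTGES2 at 0.50. The PTGS2 difference was lost without MCF10A siNT replicate 7 (1.77) or MCF10A miR-708 replicate 9 (1.89). That of PTGES2 was lost without MCF10A miR-708 replicate 8 (0.40). With miR-28, 0 of the 3 were called by the t test on the limma fits (1 had an unadjusted p below 0.05). PLA2G4A differed by 3.40 with miR-28 and 4.08 with miR-708. PPARG differed by 1.46 and 2.39, and fell in MCF10A while it rose in hTERT RPE-1 with miR-708. MGLL differed by -1.29 and -1.15. PTGFR differed by 1.65 and PTGER4 by -0.99 with miR-708. The PTGER4 difference was lost under a pseudocount of 8, scaling to equal totals and quantile normalization, and when MCF10A siNT replicate 8 or 9, MCF10A miR-708 replicate 8 or 9, hTERT RPE-1 siNT replicate 1 or 3 or hTERT RPE-1 miR-708 replicate 1 or 2 was left out (-1.003 to -0.77). The PTGFR difference was lost without MCF10A siNT replicate 8 (1.41) or 9 (1.45) or miR-708 replicate 7 (1.26). The values of each line were scaled in a table of their own.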

How the results depend on the processing

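The fall of PTGS1 in MCF10A and the rise of PTGS2 with miR-708 in hTERT RPE-1 kept their direction and their call in every alternative. Calls of small changes did not: PTGES with miR-708 in MCF10A missed the threshold at the same value of 0.35 with a pseudocount of 0.5, without a filter, without a trend and with only the 2 groups compared. Scaling to equal totals gave -0.26 for PTGES2 with miR-708 in MCF10A (call lost), 0.13 for PTGES3 there (reversed, as with quantile normalization at 0.16, and at 0.058 with miR-28), and in hTERT RPE-1 with miR-708 0.41 for PTGES2 and 0.51 for PTGES3 (both called, as was PTGES3 at 0.44 with quantile normalization). Between the mimics in hTERT RPE-1 it gave 0.25 and 0.30 (PTGES3 at 0.20 with quantile normalization). This scaling moved the median of all genes by 0.12 and 0.14 in MCF10A and by 0.09 and 0.32 in hTERT RPE-1, which covers much of these shifts. PLA2G4A with miR-708 in MCF10A turned to 0.056 under it, and the line difference of FAAH with miR-28 turned to -0.20 with a pseudocount of 8.

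Counts of all genes called between the mimics were 228 in MCF10A (150 without a trend, 643 with the replicate block) and 3084 in hTERT RPE-1 (4650 with equal totals), and those of pathway genes were 0 in MCF10A (2 with the replicate block) and 3 in hTERT RPE-1 (10 with equal totals, 6 with the block). With the replicate block the line difference of PTGS2 with miR-28 was called at the same 1.66. The block gave or removed no other call among the 6 genes against siNT.

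Leaving out a library moved the genes called with miR-28 in MCF10A from 3347 to between 1949 (without miR-28 replicate 8) and 3950, with miR-708 from 4835 to between 3174 (without miR-708 replicate 9) and 5483, and between the mimics to 112–368 in MCF10A and 1512–4084 in hTERT RPE-1. Pathway counts moved to 0–1 in MCF10A and 1–7 in hTERT RPE-1 between the mimics. For the line difference with miR-708, 13 of 27 tested were called, next to 39.8% of all genes, and this count moved to 8–14. In MCF10A the ranges were -0.74 to 0.45 for PTGS2 with miR-28 and -0.32 to 0.89 with miR-708, 0.26 to 0.46 for PTGES, -0.49 to -0.30 for PTGES2 and -0.17 to 0.070 for PTGES3 with miR-708, and between the mimics -0.032 to 0.20 for PTGES3 and -0.084 to 1.002 for PTGS2. In hTERT RPE-1 they were 0.83 to 1.83 for PTGS2 with miR-28 and 0.83 to 1.83 between the mimics, and for PTGIS -5.31 to -4.59 with miR-708 and -3.31 to -2.58 between the mimics. The line differences with miR-708 were 0.40 to 0.58 for PTGES2 and 1.77 to 2.98 for PTGS2. Among the pathway genes, values that were not called changed sign for PTGFR with miR-28 (-0.0099 to 0.92) and PTGER2 with miR-708 (-0.73 to 0.064) in MCF10A, between the mimics there for PPARG (-0.027 to 0.16) and PTGER2 (-0.20 to 0.59), and for the line difference of PLA2G4B with miR-28 (-0.31 to 0.74). The causes were not tested.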
